A study of Mus musculus with 10 samples.

Results

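Perivascular macrophages of the medial prefrontal cortex were described in single-cell RNA sequencing of male C57BL/6N mice that were over 2 months old. The mice held rank 1 or rank 4 in a social hierarchy scored with the tube test, a contest of pairs in which the mouse that backs out of a tube loses. There were 5 libraries of rank 1 mice and 5 of rank 4 mice, each from the pooled tissue of 2 to 3 mice. The labels name no transgene, other allele or agent in either rank. The tissue was punched out on the day after the last tube test and digested with papain for 60 min at 37 °C, so all cells of both ranks had passed through the same warm digestion. The labels do not say whether the meninges were removed, and the genes used here also mark macrophages of the meninges, so perivascular and meningeal macrophages cannot be told apart.

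The cells were picked by transcript counts. Barcodes under 500 genes or over 15% mitochondrial transcripts were left out. A barcode was called a perivascular macrophage with at least 4 UMIs (counts of distinct RNA molecules) summed over Mrc1, Pf4, F13a1, Lyve1, Cd163, Ms4a7 and Cbr2, at most 1 UMI of the microglial genes P2ry12 and Tmem119 together, and at most 1 UMI of Slc17a7, Gad1, Gad2, Gja1, Cldn5 and Mog together, which mark neurons, astrocytes, endothelium and oligodendrocytes. This gave 99 macrophages among 48816 kept barcodes, of 64937 deposited.

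Perivascular macrophages live in the sheath between a blood vessel and the brain tissue, and belong with the macrophages of the brain's borders. They take up material from fluid and blood through scavenger receptors and can present antigen. They share the growth factor receptor gene Csf1r and the complement C1q genes with microglia, the macrophages inside the tissue, and differ from them in the genes named above. Mrc1 encodes the mannose receptor, Cd163 a receptor for haemoglobin bound to haptoglobin, Lyve1 a receptor for hyaluronan, Pf4 the chemokine platelet factor 4, and F13a1 the A chain of coagulation factor XIII.

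Pf4 and Mrc1 were the 2 genes of the rule found in the most macrophages, and the sequences before their start sites are shown because they are the regulatory stretch nearest to the genes that define the cells. The transcription factor PU.1, made from Spi1, works in all macrophages, and GAGGAAG holds the core of its binding sites. The stretches are 250 bases that end at the base before the start site, from RefSeq on GRCm38.p6, plus strand, with every match to GAGGAAG or its reverse complement CTTCCTC in capitals. That of Pf4 lies at chr5:90772185-90772434 and that of Mrc1 at chr2:14229164-14229413.
Pf4: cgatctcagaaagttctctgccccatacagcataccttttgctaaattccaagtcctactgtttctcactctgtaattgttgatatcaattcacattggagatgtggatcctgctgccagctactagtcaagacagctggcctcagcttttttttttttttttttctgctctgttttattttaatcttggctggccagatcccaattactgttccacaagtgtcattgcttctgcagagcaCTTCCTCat
Mrc1: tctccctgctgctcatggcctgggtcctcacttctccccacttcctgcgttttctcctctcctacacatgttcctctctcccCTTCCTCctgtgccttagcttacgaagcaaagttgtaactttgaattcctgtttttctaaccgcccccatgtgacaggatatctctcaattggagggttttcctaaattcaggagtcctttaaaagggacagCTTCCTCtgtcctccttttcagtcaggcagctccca
The Pf4 stretch held 1 match and the Mrc1 stretch 2. Among the 32851 RefSeq promoters of 300 bases, 13.6% held GAGGAAG on either strand. Of the 6 genes of the rule with an entry, 4 did (Cbr2, F13a1, Mrc1 and Pf4). This was 1 of 5 letter strings searched, and the strings overlap each other. GAGGAAGT was held by 3.20% of all promoters and by 2 of the 6, AGGAAGT by 9.35% and 3, TGCTGAC by 4.67% and 1, and TATAAA by 13.6% and none. A match is a description of the letters and not a binding site. Spi1 itself was detected in 46 of the 99 macrophages.

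The libraries held between 4442750 and 29278466 UMIs over 1838 to 15826 deposited barcodes. The macrophages had a median of 1434 UMIs (674 to 4806) and 779 genes (501 to 2024). Their summed UMIs per library ran from 977 to 31711, so that 1 UMI stood for 1024 CPM (a gene's UMIs scaled to a total of 1000000 UMIs in the summed cells) in the poorest library and 31.5 CPM in the richest. CPM values and comparisons with microglia use the 8 libraries with at least 5 macrophages, unless another library is named. Between libraries, 288 of 48527 barcode strings recurred. No macrophage shared its string with a macrophage of another library, and 3 shared it with another kept barcode. No doublet caller was run, and the limits on genes of other classes were the guard against mixed droplets. Replicates 2 and 3 of both ranks stood apart from the other libraries in many genes. For many of the named genes that were highest there, though not all, values are given also for the other libraries.

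Among barcodes that met every other condition, 16003 had no UMI of the 7 macrophage genes, 69 had 1, 8 had 2 and 6 had 3, just below the threshold. Just above it, 8 had 4, 12 had 5 and 2 had 6, with no gap at the threshold, and 54 macrophages had at least 10. Among barcodes outside the limit on microglial genes alone, 4 had 2 of those UMIs and 1 had at least 5. Among those outside the limit on other class genes alone, 3 had 2 UMIs, 2 had 3 and 7 had at least 4. Barcodes with under 500 genes that met the rule numbered 11.

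The genes of the rule were found together rather than 1 at a time in most cells, which is given as a description since these values chose the cells. Pf4 was detected in 86 of 99 macrophages, Mrc1 in 83, Ms4a7 in 71, F13a1 in 59, Cd163 in 41, Cbr2 in 33 and Lyve1 in 22. Of the 99, 31 held 4 of the 7 genes and 5 held only 1. In cells thinned to 1000 UMIs, Pf4 was found in 88.6% of 79 macrophages, 0.07% of 1417 microglia and 0.06% of 12524 excitatory neurons. The microglia and neurons were gated on their own genes from the same libraries, and their median depths of 1605 and 2786 UMIs were above that of the macrophages. The gate of the microglia allowed at most 1 UMI of the 7 macrophage genes, which bounds their share, while that of the neurons set no limit on these genes. Thinning left out 20 macrophages with too few UMIs.

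**Figure D1:**
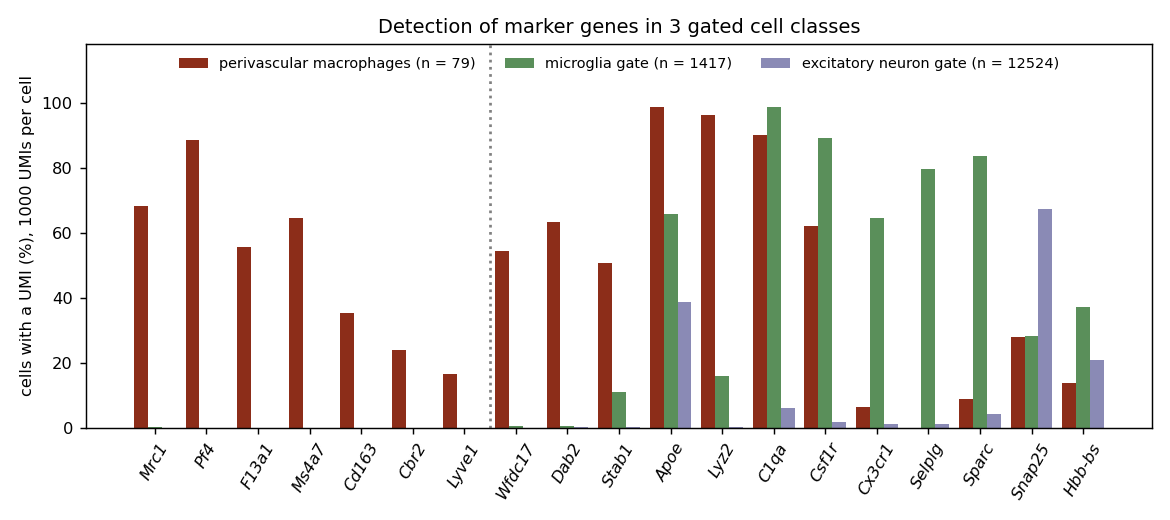
Share of cells (%, vertical axis) with a UMI of each gene (horizontal axis) after thinning to 1000 UMIs per cell, in perivascular macrophages, gated microglia and gated excitatory neurons; genes left of the dotted line are those of the rule. Apoe and C1qa were found in nearly all macrophages, Lyz2 in 96.2%, and Selplg in none of the 79.

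The label was checked on marker genes outside the rule, and nearly all cells carried them. At least 1 UMI of the C1q genes was found in 97 of 99, and at least 5 in 92. Of 22 other border macrophage genes, all had a UMI in at least 1 macrophage, and 98 of the 99 cells had at least 2 UMIs of the list. Lists for other blood and vessel cells were at or near 0. The monocyte list summed to 9 UMIs in all macrophages, with Ly6c2, Plac8 and Chil3 at 0, and 8 of these UMIs lay in 1 cell. The neutrophil list had 1 UMI, the lymphocyte list 1, and the mast cell and proliferation lists 0, with Mki67 and Top2a not detected among 99 cells. Mural genes summed to 10 UMIs, fibroblast genes to 6 and endothelial genes to 14. The dendritic cell list summed to 75 UMIs, of which 67 were of Cd209a, with Xcr1, Clec9a and Ccr7 at 0. Haemoglobin, neuronal and glial genes were present, with mean levels of the lists below those in microglia. The erythroid list ran from 111 to 1962 CPM per library in macrophages and from 192 to 6291 CPM in microglia. Its means were 531 and 1235 CPM, and 17 macrophages had at least 2 of its UMIs. The neuronal list ran from 221 to 2894 CPM per library in macrophages, against 228 to 3311 CPM in microglia and 10752 to 15497 CPM in the excitatory neurons. The oligodendrocyte list summed to 80 UMIs in all macrophages, the astrocyte list to 57 and the oligodendrocyte precursor list to 27, with mean levels of 564, 413 and 165 CPM in macrophages and 933, 524 and 223 CPM in microglia.

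Some cells met the rule on 1 gene alone and had no C1q UMI. In replicate 1 of rank 1, 1 cell owed its place to 5 UMIs of Pf4 alone, and had 0 UMIs of the border list, 0 of C1q and 4 of the general macrophage list. In replicate 5 of rank 1, 1 cell with 4806 UMIs, the deepest of all, had 4 UMIs of Mrc1 and none of the other 6 genes. This deep cell had 31 UMIs of the border list and 31 of the general macrophage list. It also had 239 UMIs of class II antigen presentation genes, no C1q UMI, 3 UMIs of the monocyte gene Ccr2, 4 UMIs of Cd209a, and 1 UMI each of the dendritic cell genes Flt3 and Itgax. Both cells met the rule and were kept. Results were recomputed with at least 2 of the 7 genes required.

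Members and microglia were sorted by the rule, so their contrast is given without a test. For each gene the log2 ratio of macrophage to microglia CPM of the same library, with 50 CPM added to both, was averaged over the 8 libraries. Of 427 genes with at least 50 UMIs in macrophages, 56 had a mean log2 ratio over 1 (13.1%) and 19 under -1 (4.45%), and nothing is read from these shares. Of the border macrophage list, 17 of 22 genes were over 1 and none under -1, with a median of 1.99. The median over the 427 genes was 0.04, but only 12 of the 22 reached their minimum of 50 UMIs. Cd209f and Cd36, among the 17, had no UMI in microglia, so the added CPM set their ratios. Of the 13 other microglial genes, 12 were under -1.

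Among genes outside the rule with at least 50 UMIs in macrophages, Wfdc17 had the highest mean ratio with 50 CPM added. It encodes a small secreted protein. Ratios of genes that are low in 1 class depend on the added CPM: that of Wfdc17 was 7.06 with 10 CPM added and 3.47 with 200 CPM added, where Apoe at 4.49 and Lyz2 at 3.99 lay above it. Wfdc17 stood at 4689, 2863, 1925, 1583 and 1353 CPM in replicates 2, 3, 1, 5 and 4 of rank 4 and 4983, 1293 and 1058 CPM in replicates 3, 2 and 5 of rank 1. Microglia had at most 55.9 CPM in any of the libraries, so no macrophage value overlapped with theirs. The log2 ratio was 5.21 ± 0.68 (SD, n = 8 libraries). Dab2, an adaptor for receptor uptake, had 908 ± 296 CPM and a ratio of 3.91 ± 0.68.

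Of the 19 scavenger and Fc receptor genes, Dab2 among them, 9 were over 1, 1 was under -1 and 3 had no UMI in macrophages, with a median of 0.28. The scavenger receptor gene Stab1 had 1236 ± 847 CPM and a log2 ratio of 2.61 ± 0.63, above microglia in 8 of 8 libraries. The lectin receptor Clec10a had 292 ± 146 CPM and was not detected in the microglia of these libraries. Cd209f, another lectin receptor, had 732 to 1356 CPM in replicates 2 and 3 of both ranks and 0 to 592 CPM in the other 4 libraries, with no UMI in microglia and none in the macrophages of rank 1 replicate 5. The fatty acid and lipoprotein receptor gene Cd36 was uneven, with 1072 to 1488 CPM in replicates 2 and 3 of both ranks and 37.0 to 507 CPM in the other 4 libraries, and was not detected in microglia. No ratio is given for these genes, since with no UMI in microglia it would be set by the added CPM. The neonatal Fc receptor Fcgrt had a ratio of 2.01 ± 1.10, while the activating Fc receptor Fcgr3 had -0.20 ± 0.99, within its spread. Lrp1, a large receptor for lipoproteins, was the member under -1, with -1.16 ± 1.11 on 10 UMIs.

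Apoe, the main lipid carrier of the brain, was detected in 99 of 99 macrophages. It reached 32102, 55593 and 23273 CPM in replicates 2, 3 and 5 of rank 1, and 32282, 31629, 43938, 62923 and 47557 CPM in replicates 1 to 5 of rank 4. The ranks overlapped, and in each library the macrophages lay above the microglia, whose mean was 1582 ± 310 CPM. The log2 ratio was 4.61 ± 0.62. In thinned cells, 38.5% of excitatory neurons and 65.6% of microglia also had an Apoe UMI. Lyz2, the myeloid lysozyme gene, had 5830 ± 2273 CPM against 170 ± 101 CPM and a ratio of 4.80 ± 0.45.

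On the microglial side, Selplg, which encodes a ligand of P-selectin, had 2 UMIs in all macrophages and 5847 in microglia. Its log2 ratio was -4.75 ± 0.64. The fractalkine receptor Cx3cr1 stood at -3.13 ± 0.52, and Sparc, an extracellular matrix gene, at -4.50 ± 0.87. Fcrls was the exception in the microglial list. It was found in 73 of 99 macrophages and had 990 ± 285 CPM, with a ratio of -0.56 ± 0.45.

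**Figure D2:**
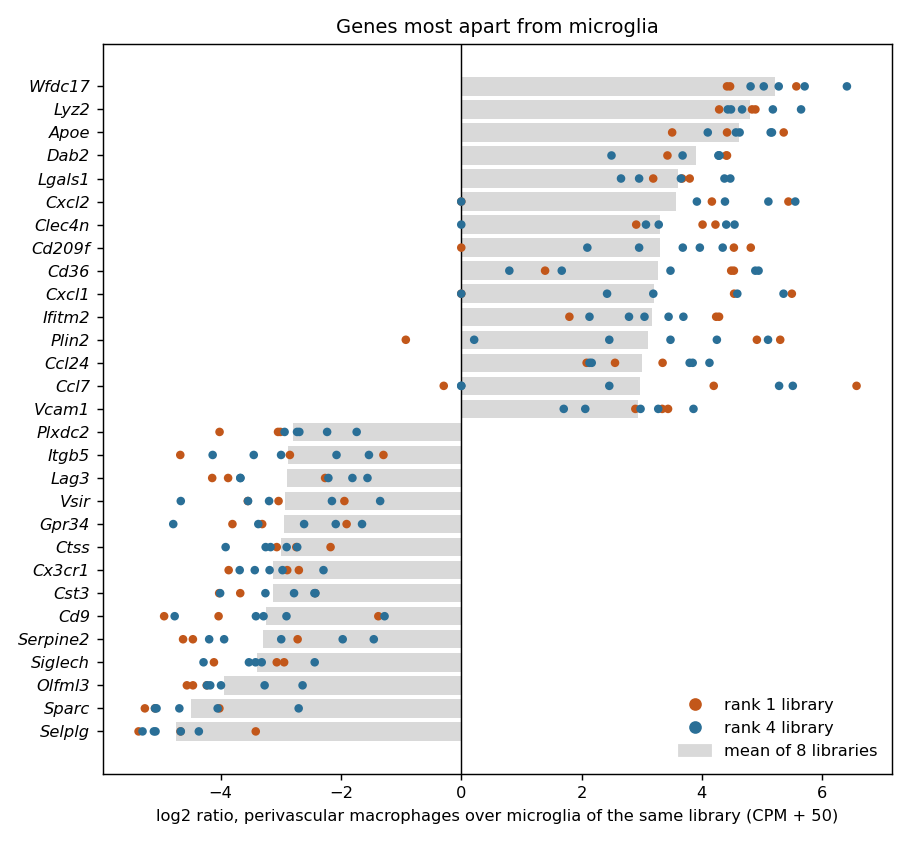
Log2 ratio of CPM in perivascular macrophages over microglia of the same library (horizontal axis, 50 CPM added to both) for genes outside the rule among the 15 with the highest and the 15 with the lowest mean; points are 8 libraries and bars their means. The genes shown with the lowest means lay below 0 in all 8 libraries, while Cxcl2, Cxcl1, Ccl7 and Plin2 ran from about 0 to over 5. Cd209f and Cd36 had no UMI in microglia and Lag3 none in macrophages, so the added CPM sets their place.

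Of 18 genes shared by macrophages in general, 2 were over 1, Apoe and Lyz2, and 5 were under -1, with a median of -0.49. C1qa had 3490 ± 988 CPM against 6614 CPM in microglia, a log2 ratio of -0.95 ± 0.33, and Csf1r had -1.01 ± 0.52. Both lay below microglia in 8 of 8 libraries. The integrin gene Itgam had -1.95 ± 0.69 and Mertk, a receptor for the uptake of dying cells, -1.76 ± 0.97, on 8 and 7 UMIs. The Fc receptor chain Fcer1g had -0.04 ± 0.46. The lysosome list was divided. Ctsb had a ratio of 1.44 ± 0.52 and Ctss one of -2.99 ± 0.50, and both encode cathepsin proteases. Of 17 lysosome genes, 1 was over 1 and 5 under -1.

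Of 10 iron and haem genes, 3 were over 1 and none under -1, with a median of 0.82. Ftl1, the ferritin light chain, had a log2 ratio of 1.34 ± 0.53, and the haem oxygenase gene Hmox1 one of 2.12 ± 0.89, each in 8 of 8 libraries. The biliverdin reductase Blvrb had 2.01 ± 0.64. Of 14 interferon-linked genes 5 were over 1, led by the membrane proteins Ifitm2 at 3.18 ± 0.91 and Ifitm3 at 2.76 ± 0.47. Their 9 fellow list members, among them Isg15 at 0.02 ± 1.10, were between -1 and 1. Of 8 growth factor genes, 2 were over 1 and 1 under -1, with a median of 0.19. Gas6, a ligand for receptors that take up dying cells, had 2.25 ± 0.37, and Igf1 had 2.08 ± 0.87 on 24 UMIs, while the growth factor gene Pdgfb had -1.08 ± 1.08 on 7 UMIs. Of 11 genes of receptors for stress signals 2 were over 1, the ATP-gated channels P2rx7 at 1.96 ± 0.67 and P2rx4 at 1.21 ± 0.83, and 1 was under -1, Csf1r.

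Chemokine levels divided the libraries. Ccl7, a chemokine that draws monocytes, was at 19331 and 9413 CPM in replicates 2 and 3 of rank 1 and at 26196 and 16131 CPM in replicates 2 and 3 of rank 4. It was at 0 CPM in rank 1 replicate 5, in rank 4 replicates 1 and 4 and in the few macrophages of rank 1 replicates 1 and 4, and at 328 CPM in rank 4 replicate 5. The lowest of the first 4 libraries was thus far above the highest of the others. In replicates 2 and 3 of rank 4, 9 of 9 and 22 of 22 macrophages had a Ccl7 UMI, and in replicates 2 and 3 of rank 1, 15 of 20 and 4 of 5. In rank 4 replicate 1, 0 of 9 macrophages did, and the count of 0 allows up to 111 CPM there and up to 507 CPM in rank 4 replicate 4, for counting error only.

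Ccl2, the neighbour of Ccl7 in the gene cluster on chromosome 11 (GRCm38 chr11:82035571-82037453 and chr11:82045712-82047525), had 4041 to 6921 CPM in the same 4 libraries and at most 328 CPM in the other 4. Ccl12, further along the same cluster, had 1293 to 3654 CPM there and at most 259 CPM elsewhere. Cxcl1, a chemokine that draws neutrophils, had 1218 to 2233 CPM against at most 407 CPM. Cxcl2, with the same role, did not follow so closely: it had 4136 to 6843 CPM in those 4 libraries, 4914 CPM in rank 4 replicate 5, 1888 CPM in rank 4 replicate 1 and 0 CPM in rank 1 replicate 5 and rank 4 replicate 4. Cxcl1 and Cxcl2 lie on chromosome 5 (chr5:90891241-90893115 and chr5:90903871-90905938). The eotaxin gene Ccl24 was not patterned this way, with 189 to 923 CPM in the 4 libraries and 169 to 710 CPM in the others.

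The microglia of the same libraries held chemokines too, with other genes in front. Ccl3 was at 5117 to 7887 CPM in microglia of replicates 2 and 3 and at most 803 CPM in those of the other 4 libraries. Macrophages had 1419 to 4208 CPM and at most 819 CPM in the same sets. Ccl4 in microglia had 8851 to 12674 CPM and at most 1787 CPM. The log2 ratio of macrophages over microglia in replicates 2 and 3 was 5.39 ± 0.97 for Ccl7 and 3.44 ± 0.60 for Ccl2, against -1.37 ± 0.45 for Ccl3 and -2.80 ± 1.20 for Ccl4 (SD, n = 4 libraries). Without these libraries the ratios were 0.54 ± 1.29 for Ccl7, 0.13 ± 1.06 for Ccl2, -1.07 ± 0.97 for Ccl3 and -1.64 ± 1.42 for Ccl4 (n = 4).

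The pattern was not restricted to chemokines. Ftl1 had 29125 to 49341 CPM in the macrophages of replicates 2 and 3 and 2523 to 10033 CPM in the other 4 libraries. Cd14, the co-receptor for bacterial lipopolysaccharide, had 3433 to 8514 CPM and at most 1201 CPM. Cebpb, a transcription factor of the inflammatory response, had 1527 to 3973 CPM and 81.4 to 273 CPM. Plin2, a coat protein of lipid droplets, had 1909 to 3795 CPM and at most 507 CPM. Of 427 genes with at least 50 UMIs, 110 (25.8%) had their highest 4 values in these 4 libraries, a count partly fixed by the minimum of 50 UMIs, which a gene high only in these libraries could pass through them. In the microglia of the same 8 libraries 156 of these 427 genes did. The iron and haem list summed to 16107 to 22727 CPM in microglia of replicates 2 and 3 and to 5358 to 7750 CPM in those of the other 4 libraries.

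Against this 25.8%, 3 of 12 border macrophage genes with at least 50 UMIs had their highest 4 values there (Cd209f, Cd36 and Clec4n), and 6 of 15 general macrophage genes did (C1qc, Cd14, Cd68, Ctss, Lyz2 and Spi1). The first share is close to that over all genes. Both such interferon-linked genes, Ifitm2 and Ifitm3, and 2 of 6 iron and haem genes, Ftl1 and Hmox1, did too. The log2 ratios to microglia in the other 4 libraries were 2.44 ± 0.58 for Ifitm2, 2.43 ± 0.38 for Ifitm3, 1.15 ± 0.61 for Ftl1 and 1.54 ± 0.44 for Hmox1 (SD, n = 4). The ratio of Plin2 was 1.31 ± 2.02 there, against 4.89 ± 0.46 in replicates 2 and 3. Cxcl1 had no UMI in the microglia of the other 4 libraries, so no ratio is given for them. Clec4n, a lectin receptor with 1 UMI in all microglia, had 757 to 1116 CPM in macrophages of replicates 2 and 3 and at most 437 CPM in the other 4 libraries. Lyz2 had 5.05 ± 0.49 and Ctss -3.07 ± 0.57 in the other 4.

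Lists of stress and activation were high in the same libraries, and so were other lists. The early-response list, genes switched on within minutes of a stimulus, summed to 9635 to 14476 CPM in macrophages of replicates 2 and 3 and to 677 to 8026 CPM in those of the other 4. The glucocorticoid list summed to 3200 to 4540 CPM against 677 to 2348 CPM, and the class I antigen presentation list to 3343 to 4072 CPM against 1925 to 2116 CPM. None of these ranges overlapped. The heat shock list did overlap, with 9640 to 14222 CPM against 3554 to 11466 CPM. The lysosome list also parted the libraries without overlap (26016 to 31257 against 10588 to 18268 CPM). So did the scavenger and Fc receptor, iron and haem, and interferon-linked lists. In microglia the early-response list ran from 8002 to 11690 CPM against 2047 to 7713 CPM. Their glucocorticoid list ran from 2670 to 4194 CPM against 928 to 2506 CPM, and their class I list did not overlap either.

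Some marker genes overlapped between the 2 sets of libraries. Mrc1, whose level the rule helped to set, had 1265 to 1550 CPM in replicates 2 and 3 and 888 to 2848 CPM in the other 4 libraries, Apoe 31629 to 55593 CPM and 23273 to 62923 CPM, and Dab2 1009 to 1218 CPM and 488 to 1111 CPM. Other values moved with the same libraries. They had the highest share of macrophages among kept barcodes, few deposited barcodes (1838 to 4630, against 3454 to 15826 in the other libraries), and the least neuronal signal in macrophages (221 to 447 CPM against 1221 to 2894 CPM for the neuronal list). Their part in the result was not tested. The labels give these replicate numbers no date or batch, and 2 of the 4 libraries are of each rank. Among libraries with at least 5 macrophages, however, they were 2 of 3 in rank 1 and 2 of 5 in rank 4.

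**Figure D3:**
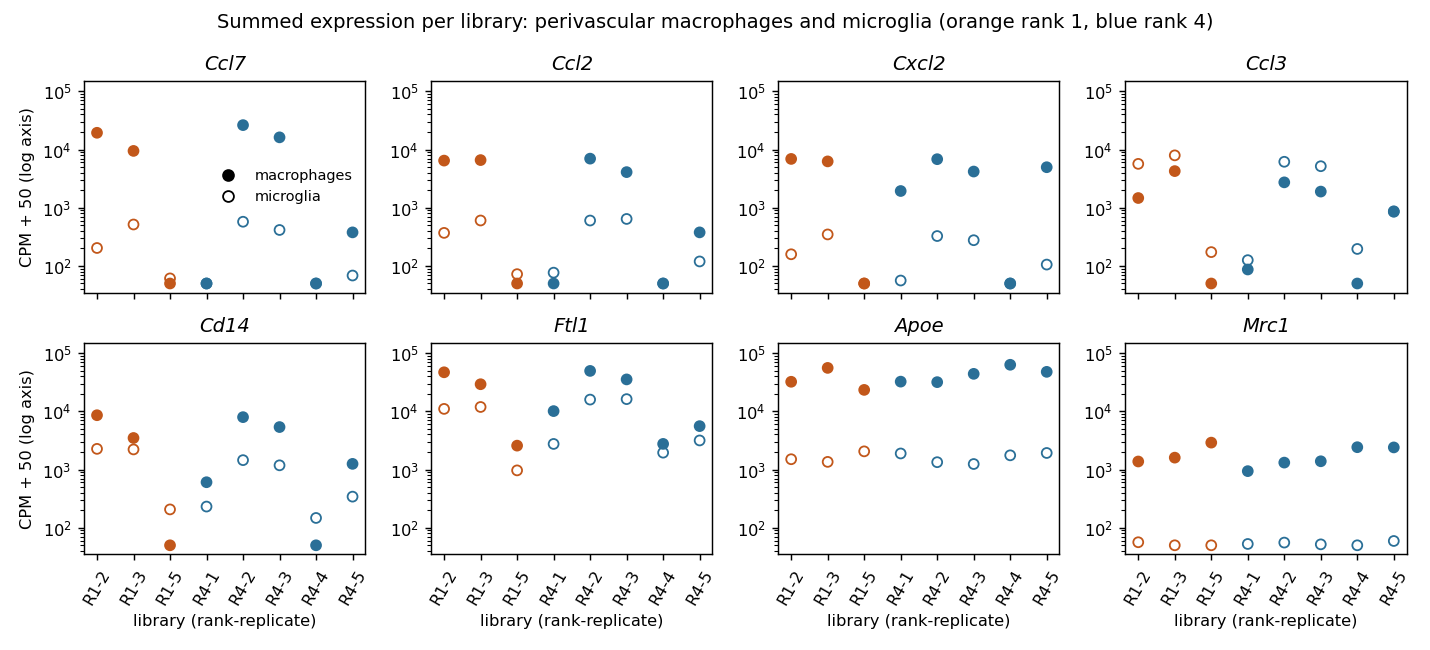
CPM plus 50 (vertical log axis) of 8 genes in perivascular macrophages (filled) and microglia (open) of the 8 libraries with at least 5 macrophages (horizontal axis, R1-2 being rank 1 replicate 2). Ccl7, Ccl2, Cd14 and Ftl1 were highest in macrophages of replicates 2 and 3 of both ranks, while for Apoe and Mrc1 the values of these libraries lay within the range of the others.

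The share of macrophages was compared between the ranks, since the rule made no use of rank. The macrophages were 0.061%, 1.02%, 0.342%, 0.0495% and 0.102% of kept barcodes in replicates 1 to 5 of rank 1 and 0.183%, 0.517%, 0.586%, 0.109% and 0.109% in those of rank 4. Replicates 2 and 3 were the highest in both ranks, and the ranks overlapped. The means were 0.314 ± 0.41% and 0.301 ± 0.232% (SD, n = 5 per rank), a difference of 0.0134 percentage points (two-sided exact permutation test, p = 0.992, adjusted p = 0.992 over the 4 values tested this way, smallest possible p 0.00794). The difference was 0.0444 points within replicates 1 to 3 and -0.0332 points within replicates 4 and 5, the sets written by the 2 software versions. Without rank 1 replicate 2, which held 20 of the 37 rank 1 macrophages, it was -0.162 points (exact permutation p = 0.238).

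Set against microglia alone, a scale that counts no neurons, the macrophages were 1.15%, 16.1%, 3.82%, 1.47% and 8.79% of macrophages and microglia in rank 1, and 2.70%, 6.62%, 6.25%, 22.6% and 8.98% in rank 4. The highest library of rank 4 was replicate 4, with 7 macrophages beside 24 microglia. The means were 6.27 ± 6.30% and 9.43 ± 7.69% (SD, n = 5 per rank; difference -3.16 points; exact permutation p = 0.508, adjusted p = 0.992). It was 1.84 points within replicates 1 to 3 and -10.7 points within replicates 4 and 5, and 0.133 points without rank 4 replicate 4. The median UMIs per macrophage were 1426 ± 315 in 3 rank 1 libraries and 1584 ± 869 in 5 rank 4 libraries (exact permutation p = 0.875, adjusted p = 0.992), with a difference of -409 UMIs within replicates 1 to 3 and 129 UMIs within replicates 4 and 5. No difference between the ranks was detectable in number or depth, and cell counts of 1 to 22 per library limit the precision.

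**Figure D4:**
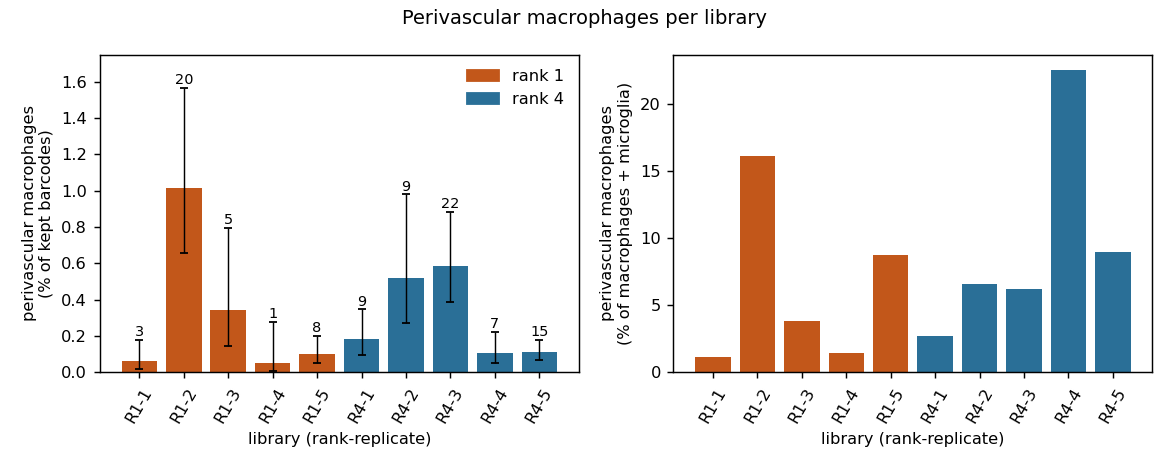
Left, perivascular macrophages as percent of kept barcodes in each library (R1-1 is rank 1 replicate 1), with 95% Wilson intervals for counting error only and the number of cells above each bar. Right, the same cells as percent of macrophages and microglia. Replicates 2 and 3 were highest in the left panel in both ranks.

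Class II antigen presentation genes, which load peptides for helper T cells, were rare in the macrophages. Border macrophages are known to fall into cells with more Lyve1 and cells with more class II. Of the 99, 76 had no UMI of Cd74, H2-Aa, H2-Ab1 and H2-Eb1, 10 had at least 2 and 3 had at least 5. Those 3 cells, all of rank 1, held 331 of all 360 class II UMIs (91.9%), with 239 in 1 cell of replicate 5 and 78 and 14 in 2 cells of replicate 2. The cells with 78 and 14 UMIs held 3 and 4 rule genes and 19 and 31 C1q UMIs, while the cell with 239 is the deep cell described above, with Mrc1 alone. Lyve1 was found in 22 macrophages, and none of these had 2 class II UMIs. With 10 and 22 cells at this depth, the absence of both together is a description.

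Macrophages with at least 2 class II UMIs made up 15%, 20% and 12.5% of those in replicates 2, 3 and 5 of rank 1, and 0%, 22.2%, 13.6%, 0% and 0% of those in replicates 1 to 5 of rank 4. The means were 15.8 ± 3.82% (SD, n = 3) and 7.17 ± 10.3% (n = 5), and the ranks overlapped (difference 8.66 points; exact permutation p = 0.321, adjusted p = 0.992; smallest possible p 0.0179). The difference was 5.55 points within replicates 1 to 3 and 12.5 points within replicates 4 and 5. The latter set had 1 rank 1 library, and its 12.5% was 1 cell of 8, the deep cell with Mrc1 alone. That share was 0% with at least 2 rule genes required. The difference was 2.33 points over all 10 libraries, 3.32 points when 1 class II UMI sufficed, 3.88 points with the replicate block and 4.76 points with at least 2 rule genes required.

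**Figure D5:**
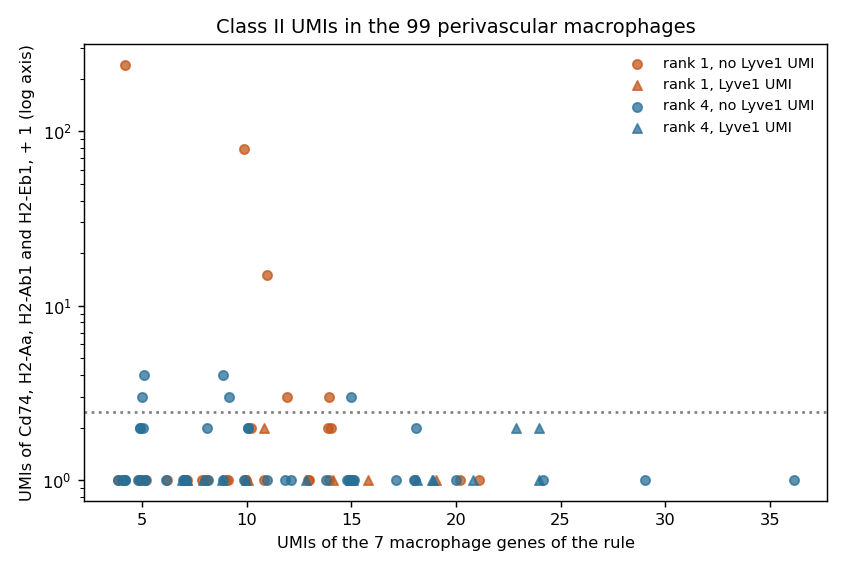
Class II UMIs plus 1 (vertical log axis) against UMIs of the 7 rule genes (horizontal axis, points shifted sideways to part them) in the 99 macrophages; triangles have a Lyve1 UMI, and points above the dotted line have at least 2 class II UMIs. No triangle lies above the line, and 3 rank 1 cells stand far above the rest.

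Gene expression of the macrophages was tested between the ranks on counts summed per library, with software version as covariate. The fit held 3 rank 1 libraries (33 cells) and 5 rank 4 libraries (62 cells). Replicates 2 and 3 made up 2 of the 3 and 2 of the 5, and the covariate put replicate 1 of rank 4 with them. None of 330 genes passed edgeR's quasi-likelihood test at a Benjamini-Hochberg adjusted p of 0.05 (0%), and 4 (1.21%) had an unadjusted p under 0.05. DESeq2 also called 0, with 6 genes at an unadjusted p under 0.05. Of the chemokine and cytokine list, 8 of 18 genes were tested and none passed, and their median log2 fold of rank 1 over rank 4 was 0.06, against -0.03 over all 330 genes. Of the border macrophage list, 11 of 22 genes were tested and none passed, with a median of -0.27, and of the early-response list 7 of 15, none passing, with 0.35. Of 10 stress-linked glucocorticoid genes 4 were tested, with a median of 0.25 and none passing.

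Among the genes with the smallest p were Cd74, the class II invariant chain, Cd209a, a lectin receptor, and the mitochondrial gene mt-Nd2. Cd74 had 2492, 222 and 9323 CPM in replicates 2, 3 and 5 of rank 1, and 0, 447, 350, 0 and 110 CPM in replicates 1 to 5 of rank 4. Both ranks held libraries at low values, and the rank 1 values came from 79, 2 and 114 UMIs, of which 63 and 11 in replicate 2 and all 114 in replicate 5 lay in the 3 cells rich in class II. The fitted log2 fold was 3.87 ± 1.09 (SE; edgeR, adjusted p = 0.997), with rank 1 higher in 2 of 3 pairs of replicates.

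Cd74 passed in 3 alternative fits: without a filter on low counts (edgeR, adjusted p = 0.00243), with 3 sets of replicates as covariate (adjusted p = 1.1e-07) and within replicates 4 and 5, where rank 1 had 1 library (adjusted p = 3.1e-05). The 3 sets were replicate 1, replicates 2 and 3, and replicates 4 and 5. No label names them, and they were formed after the levels in replicates 2 and 3 had been seen. In that fit too, replicate 5 was the only rank 1 library of its set. H2-Aa, H2-Ab1 and H2-Eb1 passed beside it in all 3, with 28 of 36, 56 of 60 and 41 of 49 UMIs from rank 1 replicate 5. The first fit also called Gfod2, and the third called Cxcl2, lower in rank 1, where the single rank 1 library and 1 of the 2 rank 4 libraries had no Cxcl2 UMI. Without rank 1 replicate 5, and with at least 2 of the 7 rule genes required in a cell, Cd74 did not reach the filter and no gene passed.

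Cd209a had 599, 1883 and 409 CPM in the rank 1 libraries and 74.1, 298, 636, 0 and 0 CPM in the rank 4 libraries, a log2 fold of 2.18 ± 0.83. The ranks overlapped, with rank 1 higher in 3 of 3 pairs of replicates. In rank 1 replicate 5, 4 of the 5 UMIs lay in the deep cell with 239 class II UMIs. The log2 fold of mt-Nd2 was -2.26 ± 0.97. Its levels were 221, 111 and 1554 CPM in the rank 1 libraries and 3741, 447, 318, 4075 and 1864 CPM in the rank 4 libraries. The ranks overlapped here too, with rank 1 lower in 3 of 3 pairs of replicates. The neuronal genes Snap25 and Camk2n1, which were also among the 10 genes with the smallest p, had log2 folds of -2.13 ± 1.09 and -2.29 ± 1.14. The level of the neuronal list in macrophages ran from 221 to 1221 CPM in the rank 1 libraries and from 445 to 2894 CPM in those of rank 4, and its part in the result was not tested. Also among the 10 were mt-Co1, mt-Cytb and mt-Nd4 at log2 folds of -1.07, -0.96 and -1.09, and Ctss at 0.96. All 10 had an edgeR adjusted p of 0.997. The libraries of the ranks did not overlap for 2 of the 330 genes (0.606%), Actb and Gas6, both higher in rank 1 and neither with an unadjusted p under 0.05.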

How the data were processed

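The authors deposited a matrix of raw UMI counts for each of 10 libraries. Software version 3.1.0 wrote the matrices of replicates 1 to 3, and 4.0.0 those of replicates 4 and 5, per the file headers. The submitters' processing notes name Cell Ranger 4.0.0 and mm10. Tests used the 30406 gene identifiers in both gene lists. Gene positions are from GENCODE on GRCm38, and promoters from RefSeq. Macrophages, microglia (at least 4 UMIs of P2ry12 and Tmem119, at most 1 of the 7 macrophage genes and at most 1 of the other class genes) and excitatory neurons (at least 2 of Slc17a7) were gated on counts. UMI counts were summed per library and not divided by gene length. The library was the replicate. Single values were compared with exact permutation tests, and 1000 UMIs per cell were drawn where shares of cells were compared across depths. The deposited counts were tested with edgeR 4.0.16 (TMM, filterByExpr) and with DESeq2 1.42.0 as an alternative, in libraries with at least 5 macrophages, after the script was tested on simulated data.

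Replicate numbers are shared between ranks. Deviations from the rank means correlated across 330 genes at 0.79, 0.62 and 0.49 in replicates 2, 3 and 5. The own number was the best match for 2 of these 3 replicates. Replicates 2 and 3 of both ranks also stood apart together in many genes, so the correlations cannot show pairing by number. The numbers were taken as pairs in the counts of pairs and in the alternatives with the replicate block. The main tests between the ranks did not use them as pairs. The labels do not say what a number stands for.

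The genes named were those of the rule, those of fixed lists with at least 50 UMIs, the 15 with the highest and the 15 with the lowest ratio to microglia, and the 10 with the smallest rank p. Further list genes were named after their values were seen, and a few genes are not reported here. The members and lists were chosen with earlier results of these data known. Alternatives covered the gates, the added CPM, depth, filters, normalization, covariates and each library left out.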

Additional observations from a re-analysis of the deposited data

How the results depend on the processing

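Of the 95 alternative tests of the 4 compared values, 72 could reach a p under 0.05, and none of these did (lowest exact permutation p = 0.0857). The other 23 had a smallest possible p of 0.0625 to 1 and could not, among them those with the replicate block and within sets of replicates. Directions were not stable. The difference in share of barcodes was -0.00849 points with at least 2 rule genes required, -0.0332 within replicates 4 and 5 and -0.122 within replicate 1, and ran from -0.162 to 0.0846 with each library left out. That among macrophages and microglia was 3.80 points with vascular and erythroid genes limited, where rank 1 replicate 1 stood at 33.3% on 1 macrophage and 2 microglia and rank 4 replicate 1 kept none of its 9 macrophages, 2.92 with at least 800 genes, 1.89 after thinning, 1.84 within replicates 1 to 3 and 3.54 within replicates 2 and 3, and ran from -5.62 to 0.133 with each library left out. The class II share differed by -0.429 points within replicates 2 and 3, by 2.33 to 4.76 under the 4 settings given in the report, by 14.0 with at least 800 genes and by 6.58 to 12.4 with each library left out. Median UMIs differed by 249 with vascular and erythroid genes limited, 129 within replicates 4 and 5, 105 within replicates 2 and 3 and 62.7 with the replicate block, and by -356 to 206 with each library left out. The cause was not tested.

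The number of genes called between the ranks was 5 without a filter on low counts, 4 with 3 sets of replicates as covariate and 5 within replicates 4 and 5, and 0 in every other fit, including each library left out. With the replicate block it was 0 of 288 genes, with 11 at an unadjusted p under 0.05 in edgeR, and the block changed no call. The 10 named rank genes kept their direction in all 182 refitted values. They were picked for the smallest p in the main fit and most refits shared its libraries, so this was likely in advance. Not every gene was tested in each of the 21 alternative fits: Camk2n1 was in 10 and Cd209a in 12. Fitting only libraries with at least 10 macrophages was not run, since no residual degrees of freedom were left. The 51 genes outside the rule with a log2 ratio to microglia over 1 became 32 with 200 CPM added, which shrinks ratios of low genes by construction, 57 with 10 CPM added, 68 in replicates 2 and 3 alone and 43 in the other 4 libraries. None of the 30 named ratios changed sign. They were picked as the highest and lowest in the same data, so this was largely fixed in advance. Of their 120 values under the 4 alternatives, 35 moved by more than 1 SD. Among them was Dab2, with 2.34 at 200 CPM added and 5.53 at 10 CPM added. In all, 4 kinds of alternative were chosen after seeing the data: the fit with 3 sets of replicates, values within replicate 1, within replicates 2 and 3 or outside them, those requiring 2 rule genes, and those keeping only barcodes at or above the highest of the libraries' lowest UMI totals.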
